A study of Mus musculus with 7 samples.

Results

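The genes described here code for proteins of the cytosolic ribosome, measured in the lens epithelium of SPARC-null (KO) and wild-type (WT) mice. SPARC is a secreted glycoprotein that binds collagen IV of the lens capsule. All mice were littermates of 1 litter, 28 days old, on a C57Bl/6 background and in normal housing. The KO group held 4 lenses of 3 animals, 1L and 1R of animal 1, 4L and 7L, and the WT group 3 lenses of 3 animals, 2L, 5L and 6L. The number names the animal and the letter the left or right eye. By the labels only KO animal 7 was male. Laser capture on cryosections supplied the epithelium, and RNA amplified over 2 rounds was read on an Affymetrix mouse array, 1 per lens. In such bulk samples, fewer cells of a type and less RNA per cell cannot be told apart. The sources used here do not give the deleted part of Sparc.

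Members were the genes whose only platform symbol was Rpl or Rps followed by a number, with an optional a or x. This rule found 39 of 18193 genes with a single symbol, 20 of the large subunit (Rpl) and 19 of the small subunit (Rps). They were read by 90 probe sets, and each gene was represented by its probe set with the highest mean signal over the 7 lenses. The rule used names and mean level only, not the difference between KO and WT. The family itself was chosen with earlier results of these data known. A further 109 probe sets carry a ribosomal protein symbol together with other symbols, and 26 ribosomal protein symbols, Rpl3 and Rpl5 among them, occur only there. Those genes were not members.

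The cytosolic ribosome translates nuclear messages. Its small subunit reads the messenger RNA and its large subunit joins amino acids, and each ribosomal protein is made in proportion to the others and assembled with ribosomal RNA in the nucleolus. Many ribosomal protein messages start with a C followed by a run of pyrimidines (the 5' terminal oligopyrimidine, or TOP, motif), through which TOR signalling controls their translation. The lens epithelium is the only dividing layer of the lens and supplies the fibre cells, which make crystallins in bulk before they lose their nuclei and organelles.

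A pyrimidine run at the start is a sequence feature that the rule did not use. Most annotated member starts lacked it, but it was more frequent among them than among other genes, so a few start sites are printed. RefSeq start sites (GRCm38.p6) were found for 34 of the 39 members, 40 starts in all. Each line runs from 15 bases before the annotated start to 15 bases from it on, so that the 16th base is the annotated start. Capitals mark the unbroken run of C and T over that base, as far as it lies in the window.
Rpl7a (chr2:26910792-26910821, plus strand): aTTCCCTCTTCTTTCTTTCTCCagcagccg
Rpl27a (chr7:109519180-109519209, plus strand): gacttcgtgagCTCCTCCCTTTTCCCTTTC
Rpl35 (chr2:39005117-39005146, minus strand): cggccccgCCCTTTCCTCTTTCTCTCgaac
Rps10 (chr17:27635230-27635259, minus strand): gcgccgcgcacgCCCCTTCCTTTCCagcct
Rps18 (chr17:33955651-33955680, minus strand): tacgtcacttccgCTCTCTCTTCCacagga
Rps6 (chr4:86857353-86857382, minus strand): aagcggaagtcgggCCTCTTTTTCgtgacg
Rps19 (chr7:24884577-24884606, plus strand): tccgaaatctcgcgagactcgacgcccgac
Rps4x (chrX:102189377-102189406, minus strand): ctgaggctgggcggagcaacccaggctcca
The first 6 were chosen as starts that lie inside a pyrimidine run. Rps19, of which 1 of 3 annotated starts is shown, and Rps4x have a G there. Whether the annotated starts are those used in the lens was not tested. A G there therefore does not show that a message lacks the TOP motif. At Rpl13a, Rpl4 and Rps25 runs of 14, 14 and 12 pyrimidines lay within 20 bases of the annotated start but not over it. A run of at least 8 pyrimidines covered 11 of 40 member starts (27.5%), against 3.78% of 18069 starts of the other measured genes. The annotated start base was a C at 12 of 40 member starts (30%), beside 14.3% of the others, and it was a T at Rpl7a and Rpl27a. It was 21 bases long at Rpl7a, 20 at Rpl27a and 10 at Rps6. Within 20 bases to either side of the start, 42.5% of member starts and 16.1% of the others held such a run. The letters TTCCG or CGGAA, the core that ETS family factors bind read on both strands, occurred in 34 of 40 member windows of 250 bases before to 50 after the start (85%), and in 39.5% of the others. These letters can overlap a pyrimidine run. The 11 members with a run over a start had a median KO minus WT difference of 0.01 on the log2 scale and the other 23 members with a start one of -0.06.

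The labels were checked with Sparc, whose log2 level over 3 animals each (mean ± SD) was 5.44 ± 0.76 for KO and 15.38 ± 0.02 for WT, with no overlap between lenses and a limma adjusted p of 3.41e-06. Of 10 lens epithelium markers, 9 lay above the highest of 27 bacterial control probe sets (signal 45.5, taken here as background) in all 7 lenses. So did 7 of 7 measured photoreceptor markers, whose summed signal ran from 46142 to 70709 over KO and from 40121 to 74135 over WT lenses, and 8 of 8 measured fibre markers. The 10 macrophage and leukocyte markers summed to 1663 to 2889 over KO and 863 to 1598 over WT lenses, with 9 of 10 higher in KO. Only 3 of these 10 lay above background in all 7 lenses, and Aif1 was at or under it in every lens. Of 4 red cell markers, 0 lay above background in all 7 lenses, and 2 (Epb42 and Hba-a1) were at or under it throughout. The 4 summed to 77.4 to 370.5 in KO and 36.4 to 80.2 in WT. The ratio of Gapdh signal at its 3' end over its 5' end, lower where RNA is more intact, was 3.75 in 2L and elsewhere 9.06 to 15.9. The brightest signal on the array of 2L was 28328, against 42153 to 53056 on the others.

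Most members were among the brightest genes of the array. On the log2(signal + 16) scale after quantile normalisation, which gives all arrays the same distribution, 31 of 39 lay above the 95th percentile of the 18193 genes and 22 above the 99th. Their deposited signals had a median of 13581 to 20678 per lens. The 8 members at or under the 95th percentile were Rpl12, Rpl14, Rpl27a, Rpl37, Rpl39, Rps16, Rps25 and Rps27. For Rps16, which contacts the transfer RNA in the small subunit, the only probe set with a single symbol was at or under background in all 7 lenses (signal 0.896 to 14.7), so it gives no level for that gene. The other 38 members lay above background in every lens.

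No ribosomal protein gene differed between KO and WT at an adjusted p of 0.05 in limma, which was fitted over all 45037 probe sets. The lowest adjusted p among the 39 was 0.99988, and 0 members had an unadjusted p under 0.05. Over all 18193 genes, 0.0055% passed the adjusted and 4.12% the unadjusted threshold, and over all probe sets 0.00666% and 4.06%. KO was higher for 16 members (41.0%, beside 45.8% of all genes) and lower for 23. Their median difference on the log2 scale was -0.05, beside -0.03 over all genes. The 20 large subunit genes (8 higher, 12 lower) had a median of -0.07 and the 19 small subunit genes (8 higher, 11 lower) one of -0.01. The difference was under 0.3 in size for 36 of 39 members, and for 30 it was smaller than the SD between animals within the groups. Both counts were not made over all genes, so they have no background. The median size of the difference was 0.12 over the members, 0.15 over genes above the 75th percentile and 0.20 over all genes.

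The intervals of these differences were narrow for the bright members. The 95% interval lay inside a 2-fold change in either direction for 34 of 39 members (87.2%), which is near the share among the 4548 genes above the 75th percentile (88.5%) and above that among all genes (58.0%). For 17 members, all among the 31 above the 95th percentile, it lay inside a 1.5-fold change. The same held for 1260 of the 4548 genes above the 75th percentile and for 1981 of all 18193 genes. The widest intervals were those of Rps27, Rpl14, Rpl27a, Rpl12 and Rps19, the 5 that reached past 2-fold. After quantile normalisation, KO and WT lenses did not overlap for 2 members, Rpl4 and Rpl8, both lower in KO. That is 5.13% of the members, beside 5.48% of all genes in either direction, 2.94% with KO lower and 2.54% with KO higher, so the members' share is near the background. Over all probe sets these shares were 5.33%, 2.76% and 2.56%. In the signals as deposited the lenses overlapped for both genes. Rpl4 reached 15949 in KO and began at 15932 in WT. Rpl8 ran from 11282 to 18314 in KO and from 13581 to 19395.5 in WT. Without KO animal 7 the members' median was 0.08 and 22 of 39 were higher in KO, so the sign of the median changed without that animal. It also changed with every animal kept, to 0.0029 with 20 of 39 higher under array weights and to 0.0013 with 21 of 39 higher when 1L was the only lens of KO animal 1.

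**Figure D1:**
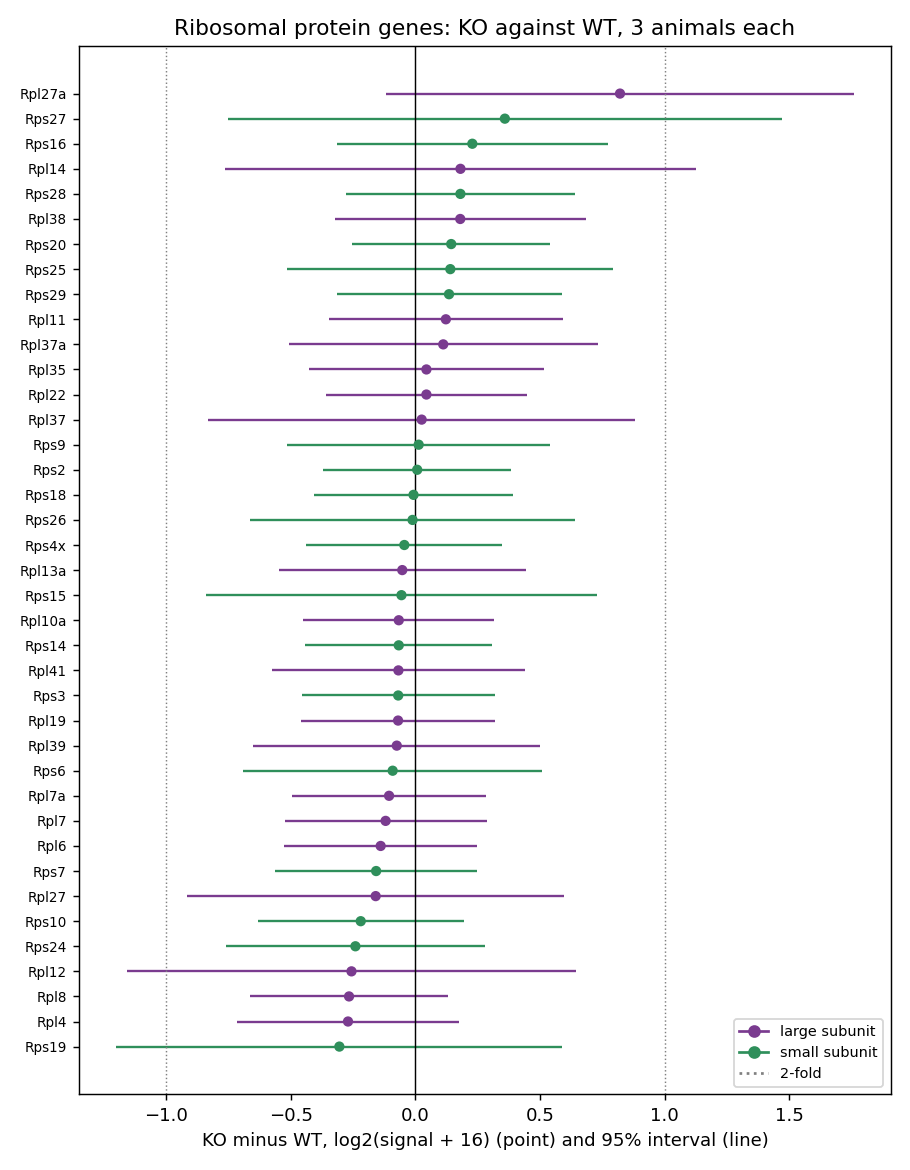
KO minus WT difference in log2(signal + 16) for each of the 39 genes (points; x axis) with its 95% interval from limma (lines), 3 animals a group, ordered by the difference on the y axis. All 39 intervals include 0, and 34 lie between the dotted lines that mark a 2-fold change.

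Among large subunit genes, Rpl4, which lines the tunnel through which the new protein leaves, stood at 13.80, 13.85, 13.79 and 13.83 in KO lenses 1L, 1R, 4L and 7L and at 14.43, 13.92 and 13.91 in WT lenses 2L, 5L and 6L. The 4 KO lenses lay within 0.06 of each other, and the group difference on this scale came mostly from 2L. In the signals as deposited, 2L was instead the lowest WT lens (15932, against 16835 in 5L and 17375 in 6L). The log2 difference of Rpl4 was -0.27 (SE 0.20, 95% interval -0.72 to 0.18, limma adjusted p = 0.99988, unadjusted p = 0.205). Rpl8, which lies beside the peptidyl transferase centre, was at 13.98, 13.48, 14.01 and 13.69 in KO and at 14.14, 14.03 and 14.05 in WT. The highest KO lens lay 0.03 under the lowest WT lens, while both lenses of KO animal 1 differed by 0.50. The difference of Rpl8 was -0.27 (SE 0.18, 95% interval -0.66 to 0.13).

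Rpl27a, whose loss of function in mice gives the sooty foot ataxia trait, had the largest difference of all members, 0.82 (SE 0.42, 95% interval -0.12 to 1.76, limma adjusted p = 0.99988, unadjusted p = 0.0794). Its lenses stood at 10.52, 12.13, 10.92 and 12.34 in KO and 9.90, 10.95 and 11.27 in WT. Lenses 1R and 7L were high, while 1L and 4L lay inside the WT range, and the eyes of KO animal 1 were 1.60 apart. This probe set is not among the brightest (87.5th percentile), and the other Rpl27a probe set was at or under background. Leaving out 1 animal at a time gave differences from 0.42 (without KO animal 7 or without WT animal 2) to 1.12 (without KO animal 4, unadjusted p = 0.0325, adjusted p = 0.99996 in limma).

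Rpl11, which together with Rpl5 binds the p53 regulator Mdm2 when ribosome assembly fails, had a mean of 13.66 ± 0.31 (SD, n = 3 animals) in KO and 13.54 ± 0.15 in WT. Rpl22, an RNA-binding protein of the large subunit, was at 14.42 ± 0.12 and 14.38 ± 0.14. Rpl13a, known outside the ribosome for silencing inflammatory messages, was at 14.58 ± 0.32 and 14.64 ± 0.23. These 3 genes differed by 0.12, 0.04 and -0.05, each less than its SE. Rpl38, whose mutation changes the translation of Hox messages in mouse embryos, stood at 15.11, 14.56, 14.73 and 14.25 in KO and 14.13, 14.47 and 14.67 in WT. Lens 1L was above every WT lens and 7L below 2 of the 3. Rpl39, a short protein of the exit tunnel encoded on the X chromosome, differed by -0.07 (SE 0.26), with the eyes of KO animal 1 at 9.43 and 8.63. Rpl41, the shortest ribosomal protein, differed by -0.07 (SE 0.23), and Rpl6 and Rpl7 by -0.14 and -0.12.

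In the small subunit, Rps6, the target of the S6 kinases downstream of TOR, stood at 12.10, 12.23, 12.40 and 12.45 in KO and at 11.80, 12.72 and 12.77 in WT. The KO lenses lay between the lowest WT lens, 2L, and the other WT lenses. Its difference was -0.09 (SE 0.27), and without WT animal 2 it was -0.42 (unadjusted p = 0.0498, adjusted p = 0.852 in limma). Rps4x, the X-linked copy of Rps4, averaged 14.59 ± 0.14 over KO and 14.64 ± 0.07 over WT animals. Lens 7L was the highest of the 7 for Rps4x at 14.75 after quantile normalisation. As deposited, 7L was the lowest KO lens (23865) and 6L the highest of all (30681). After quantile normalisation Rps2 was the steadiest member, with all 7 lenses between 14.69 and 14.80. Its signals as deposited ran from 18292 in 2L to 32462 in 5L. Its difference was 0.01 (95% interval -0.37 to 0.38). On the normalised scale Rps14 varied by 0.35 over the lenses and Rps3, at the entry of the message channel, by 0.245.

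Rps19, the gene most often mutated in Diamond-Blackfan anaemia, had the lowest difference, -0.30 (SE 0.40, 95% interval -1.20 to 0.59). It stood at 13.38, 12.58, 12.71 and 11.18 in KO and at 12.71, 12.64 and 12.44 in WT. The 3 WT lenses lay within 0.27 of each other, while the KO lenses held both the highest value, 1L, and the lowest, 7L. Without KO animal 7 the difference was 0.25. Rps15, whose tail reaches the decoding site, stood at 13.90, 12.97, 13.57 and 12.07 in KO and at 12.97, 13.14 and 13.12 in WT. As for Rps19, 1L was the highest and 7L the lowest of the 7 lenses. It differed by -0.06 (SE 0.35), and without KO animal 7 by 0.42 (unadjusted p = 0.0465, adjusted p = 0.997 in limma). Rps26, at the exit of the message channel, averaged 13.04 ± 0.62 over KO and 13.05 ± 0.18 over WT animals. The other small subunit genes with the smallest p in either direction were Rps28 (0.18), Rps20 (0.14), Rps29 (0.13) and Rps27 (0.36), higher in KO, and Rps10 (-0.22), Rps24 (-0.24) and Rps7 (-0.16), lower in KO.

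The spread over single lenses differed between members. Of 39 genes, 10 had a range over the lenses of more than 1 on the log2 scale and 13 a range of at most 0.5. Of the 10, 7 were highest in 1L and 7 lowest in 7L, and 6 were both (Rpl27, Rpl37, Rpl37a, Rps15, Rps19 and Rps26). Over all 39 members, KO lens 7L was lowest for 12 (30.8%, beside 16.9% of all genes) and WT lens 2L for 11 (28.2%, beside 15.9%). KO lens 1L was highest for 14 (35.9%, beside 14.2% of all genes) and 2L for 9 (23.1%, beside 14.1%). Among genes above the 75th percentile, 2L was lowest for 21.97% and highest for 18.54%, closer to the members' shares. There 7L was lowest for 15.08% and 1L highest for 15.63%, near the shares of all genes. Of 76 mitochondrial ribosomal protein genes, 7L was lowest for 39.47% and 1L highest for 39.47%. The pattern of 1L and 7L was thus not limited to the members. Lens 7L lay below all WT lenses for 18 members and 1L above all WT lenses for 16. The same shares over all genes were not computed, so these counts cannot be set against a background. The median deviation of the members from the mean of the 6 animals was 0.10 in 1L, -0.0011 in 1R, 0.09 in 4L and -0.13 in 7L, and -0.03, 0.01 and 0.06 in 2L, 5L and 6L. Over all genes it stayed between -0.04 and 0.03. Animal 7 is the only male, so sex and animal cannot be told apart here. Its Gapdh ratio of 9.88 and beta-actin ratio of 13.8 were below those of the other KO lenses (10.6 to 15.9 and 14.97 to 19.1). The part of RNA quality in these lens differences was not tested.

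**Figure D2:**
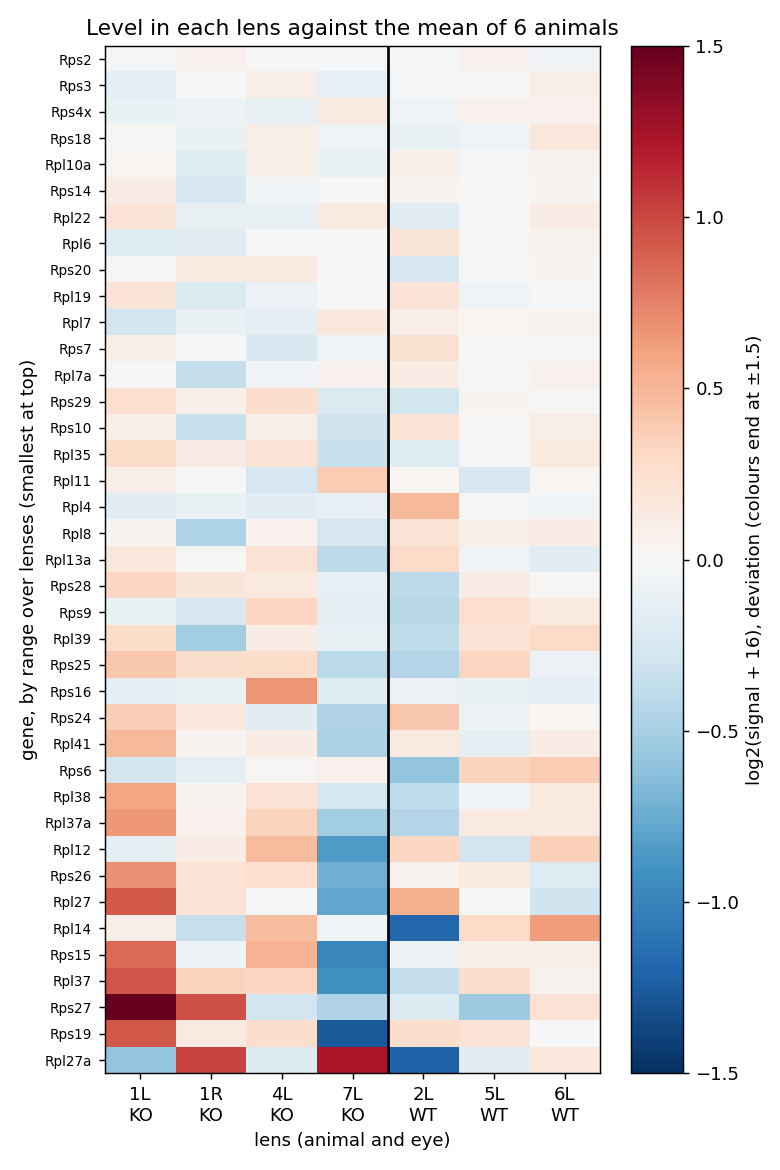
Deviation of log2(signal + 16) in each lens (columns, KO left and WT right of the black line) from the mean of the 6 animals, for the 39 genes (rows) ordered by their range over lenses. Values were quantile normalised. The rows at the top are nearly white. The rows at the bottom are mostly red in 1L and blue in 7L, while Rpl27a at the foot is red in 1R and 7L.

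After quantile normalisation, the median spread within groups was smaller over the members than over all genes. The SD between animals, pooled over both groups, had a median of 0.25 over the members, 0.29 over genes above the 75th percentile and 0.37 over all genes. It was 0.21 over the 31 bright members and 0.58 over the 8 weaker ones. It was lowest for Rps14 (0.03) and Rps2 (0.04) and highest for Rps27 and Rpl27a (both 0.73). Quantile normalisation gives all arrays the same distribution, also at the top, where most members lie. In the signals as deposited, the members' median deviation ran from -0.36 in 2L to 0.27 in 6L. The part of scaling and level in the smaller spread was not tested.

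Some probe sets of the same gene followed each other closely from lens to lens, and others did not. For 21 members there was more than 1 probe set, and for 18 of them 34 further probe sets had a mean deposited signal of at least 1000. The log2 gap between such a probe set and the brightest of its gene varied over the 7 lenses by at most 0.5 for 8 of the 34, by more than 0.5 and at most 1 for 10 and by more than 1 for 16. It varied least for Rps20 (0.155), and by 0.248 and 0.256 for a probe set of Rpl35 and of Rps14. The genes named next are among those with the largest variation. At the next brightest Rpl22 probe set the log2 level was 1.08 below the brightest in 1L and 4.08 below it in 7L. The brightest Rpl22 probe set varied by 0.36 over the lenses, so the change lay in the other one. For Rps7 the gap was -1.52 in 1L and -4.08 in 7L, and for Rpl37a -0.64 and -2.80. Rps18, a protein of the small subunit head, gave -0.68 in 1L and -2.80 in 7L at 1 of its other probe sets. Of the 34 further probe sets, the gap was lowest in 7L for 13 and in 2L for 12. For Rpl27 the brightest probe set was itself lowest in 7L (12.59, against 13.35 to 14.30 in the other KO lenses), while the next was at 13.31 there. The sources used here do not place these probe sets along the messages.

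In the comparison of KO with WT, 10 members had probe sets above background on both sides of 0. The KO minus WT difference ran from -0.59 to 0.04 over the 3 probe sets of Rpl22, from -0.44 to 0.18 over the 6 of Rps10, from -0.26 to 0.17 over 5 of Rpl35 and from -0.23 to 0.39 over the 4 of Rpl41. It ran from -0.33 to 0.11 for Rpl37a, from -0.43 to 0.01 for Rps9, from -0.24 to 0.14 for Rps24, from -0.16 to 0.25 for Rpl27, from -0.09 to 0.05 for Rps6 and from -0.07 to 0.01 for Rps14. None of the 51 further probe sets passed an adjusted or an unadjusted p of 0.05 in limma, and their median difference was -0.10. Probe sets whose name marks possible matches to several transcripts (_x_ or _s_) represented 15 of the 39 members, so their values are uncertain as levels of 1 gene. With only the other kinds, available for 34 members, 10 were higher in KO.

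**Figure D3:**
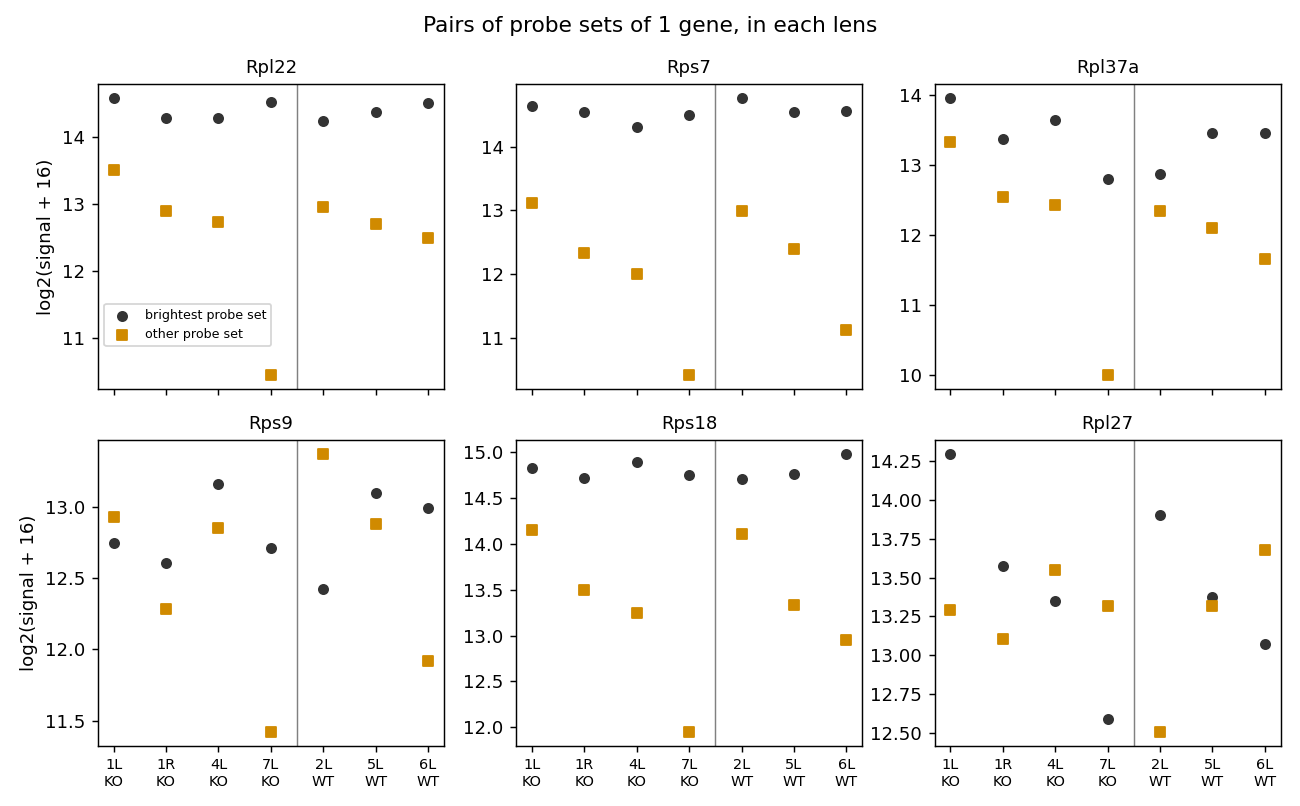
Log2(signal + 16) of the brightest probe set (dark circles) and of another probe set (yellow squares) of 6 genes in each lens, KO left and WT right of the grey line. For Rpl22, Rps7, Rpl37a and Rps18 the other probe set lies furthest below the brightest in 7L, and for Rpl27 the brightest is itself lowest there.

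The lens pattern depended on the scaling more than the comparison did. In the signals as deposited, the members' median deviation was -0.36 for 2L, a WT lens, and -0.30 for 7L, a KO lens. The remaining 5 lenses lay between 0.03 and 0.27. Lens 2L was then lowest for 22 of 39 members, against 11 after quantile normalisation. With median centring, 2L was at -0.31 and 7L at -0.34. Both groups thus held a lens with low signals of these bright genes, and the members' median KO minus WT difference was -0.0026 with signals as deposited and -0.10 with median centring. Median centring moved the median of all genes to the same -0.10.

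**Figure D4:**
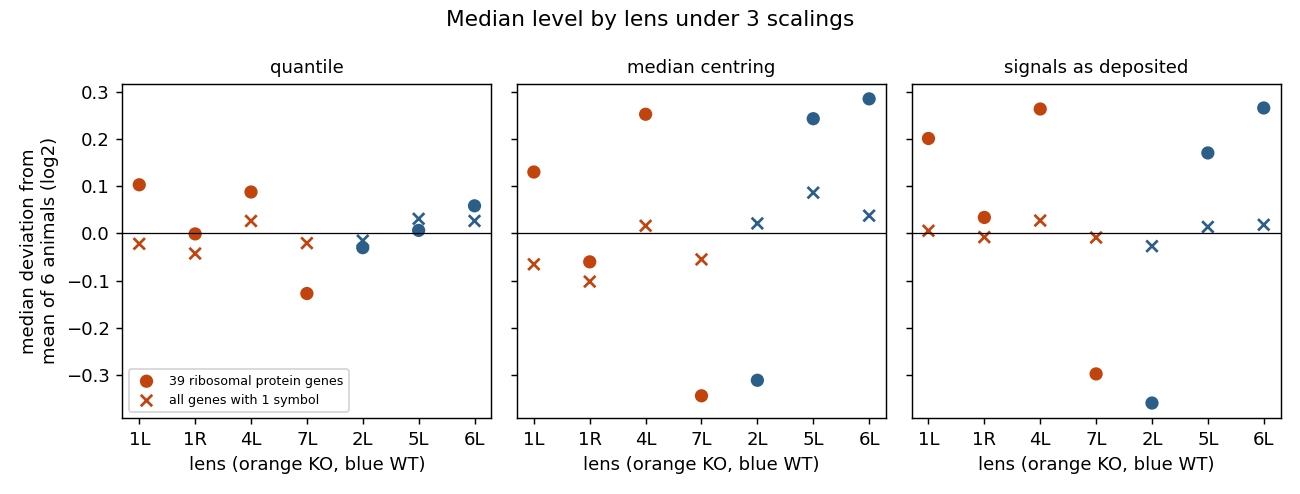
Median deviation of the 39 ribosomal protein genes (circles) and of all genes with a single symbol (crosses) from the mean of the 6 animals, by lens, under 3 scalings (KO orange, WT blue). Lenses 2L and 7L lie lowest with median centring and with signals as deposited, and the all-gene medians stay near 0.

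Other genes of translation were read from lists chosen by function. No gene of these lists passed an adjusted p of 0.05 in limma. Of all 18193 genes, 45.8% were higher in KO. Of 9 measured ribosomal proteins outside the naming rule, 7 were lower in KO (median -0.12). That median was 0.091 without KO animal 7, -0.013 without WT animal 2 and 0.00033 under array weights. Among them Rplp0, of the ribosomal stalk, averaged 14.66 over KO and 14.77 over WT animals, and Rpsa, the laminin-receptor-type protein of the small subunit, at 14.67 and 14.79. Fau, the source of Rps30, had the smallest p of that list, with a difference of -0.39 (SE 0.36) that was 0.091 without KO animal 7, and Rpl7l1 differed by 0.17. Of 9 elongation factors, 7 were lower (median -0.07, and 0.010 without WT animal 2). Eef1a1, which brings transfer RNA to the ribosome, was at 14.77 and 14.79, while Eefsec, the selenocysteine factor, averaged 8.20 ± 0.34 over KO and 8.85 ± 0.23 over WT animals (limma adjusted p = 0.99988, unadjusted p = 0.0412). Of 30 initiation factors, 23 were lower (median -0.13), with Eif6, which keeps the subunits apart, at 11.00 and 11.41 and Eif2b3 at 9.29 and 9.74.

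Of 45 ribosome assembly and nucleolar genes, 19 were higher and 26 lower (median -0.09). Gar1, of the snoRNA particles that modify ribosomal RNA, averaged 9.86 ± 0.08 over KO and 9.27 ± 0.36 over WT animals, with every KO lens above every WT lens (limma adjusted p = 0.99988, unadjusted p = 0.0363), and Utp14a differed by -0.42. In this list the lenses also did not overlap for 2 genes lower in KO, Sbds and Pes1. With Gar1 that is 6.67% of the list, near the 5.48% of all genes. For 16 genes of the TOR pathway and TOP message binding the median was -0.08. Rps6ka3, the kinase Rsk2, was at 10.47 ± 0.40 in KO and 9.74 ± 0.24 in WT (limma adjusted p = 0.99988, unadjusted p = 0.0171). Rps6kb2, an S6 kinase at or under background in 4 lenses, was at 5.69 and 6.49. For 12 genes of ribosomal stress and p53 response the median was -0.09, and Btg2 and Mdm4 differed by -0.49 and -0.29. In these lists an unadjusted p under 0.05 in limma was reached by 1 elongation factor, 1 assembly gene and 1 TOR pathway gene, those named here, beside 4.12% of all genes.

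Of 76 genes for mitochondrial ribosomal proteins, which serve the separate ribosome of the mitochondrion, 63 were lower in KO (median -0.22, beside -0.03 over all genes), and 0 had an unadjusted p under 0.05. Mrpl37 averaged 7.69 ± 0.10 over KO and 8.29 ± 0.36 over WT animals, and Mrpl55 at 8.24 ± 0.60 and 8.85 ± 0.15 (SD, 3 animals each). Their median deviation was -0.29 in 1R and -0.32 in 7L, but 0.27 in 1L and 0.16 in 4L, and 0.09 to 0.11 in the WT lenses. The KO lenses thus lay on both sides of the WT lenses. Without KO animal 7 the median of this list was -0.03.

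**Figure D5:**
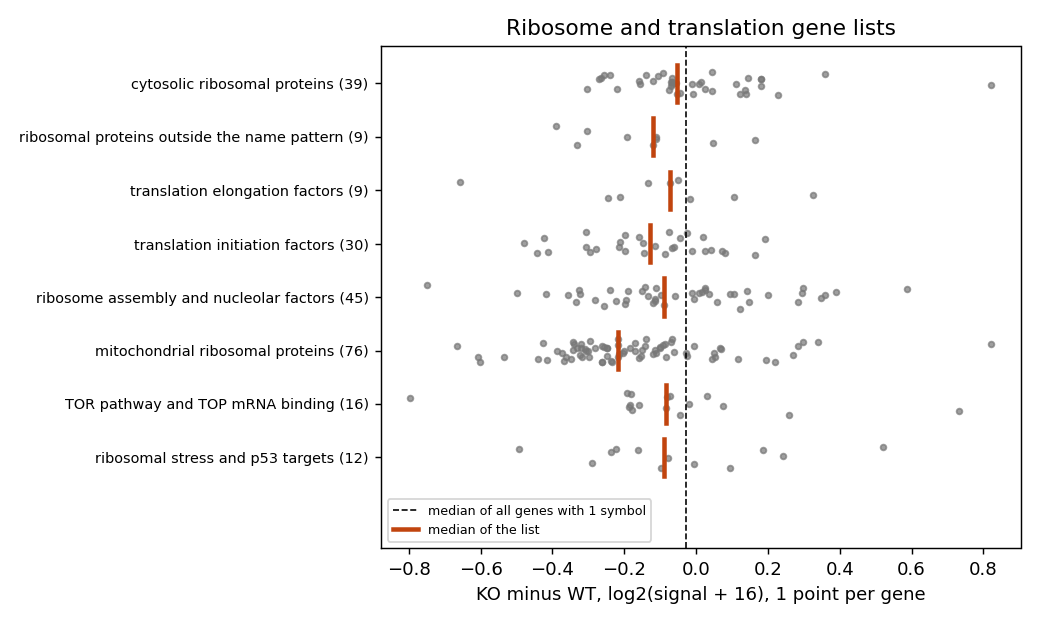
KO minus WT difference in log2(signal + 16) of each measured gene (grey points) of the cytosolic ribosomal proteins and 7 related lists, with the median of each list (orange bars) and of all genes with a single symbol (dashed line, -0.03). The list of mitochondrial ribosomal proteins has the lowest median, -0.22, and the cytosolic ribosomal proteins lie at -0.05.

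The 109 probe sets that pair a ribosomal protein symbol with other symbols gave a like picture without naming a gene. Of these, 44 were higher and 65 lower in KO, with a median of -0.05, and none had an unadjusted p under 0.05 in limma.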

How the data were processed

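The table deposited by the authors holds linear intensity values, 1 signal per probe set and lens. Tested on the table, each array had a mean of 500.003 or 500.004 after trimming 2% at each end. The sources used here name neither the summary software nor its background correction. The 64 control probe sets were left out of 45101, and 45037 were turned into log2(signal + 16), quantile normalised and, for 1L and 1R of KO animal 1, averaged. No filter was set on low values. A log2 difference with this pseudocount understates changes of weak probe sets, and the number of arrays limits precision. KO and WT animals (n = 3 each) were compared with limma 3.58.1 in R 4.3.3 (lmFit, eBayes with an intensity trend, two-sided, Benjamini-Hochberg over all probe sets). Intervals are limma's 95% intervals. Symbols came from the platform annotation. Genes were named by unadjusted p in each direction, by known function, by the gap between 1L and 1R and by disagreement of probe sets. The members and lists were chosen with earlier results of these data known. The code was tested on simulated data.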

Additional observations from a re-analysis of the deposited data

Results flagged for a closer look

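Among the 4 KO lenses, a single lens lay far from the others for 3 of 44 genes checked, as the share of the group's range taken by its gap to the nearest lens. Chance gives about 1 such case in 20 groups, and 1L and 1R come from the same animal. For Rps4x, lens 7L lay at 14.75 and the others at 14.50 to 14.54 (gap 0.85 of the range) after quantile normalisation. In the signals as deposited, 7L was instead the lowest KO lens for Rps4x (23865, the others 24029 to 26404). For Rps16, at background throughout, 4L lay at 4.92 and the others at 4.08 to 4.15 (0.917). For Eif6, an initiation factor, 1R lay at 10.32 and the others at 11.10 to 11.18 (0.904).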

How the results depend on the processing

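The 7 lenses as separate samples, either lens of KO animal 1 alone, the animal as a block with a correlation of 0.5 set by hand, median centring, signals as deposited, array weights, a low-signal filter, a fit without the trend, a pseudocount of 1 or 64, a threshold of 0.1, other choices of probe set and leaving out each animal were tried. The block, the probe sets with several symbols and the members above background were added after seeing the data. An estimated correlation for the block gave no number and was not run. No member passed the adjusted threshold under any of these in limma, where the adjusted p of named genes other than Sparc was at least 0.595. Small differences changed sign, all without passing, and the cause was not tested. With 7 separate lenses the log2 difference was 0.0070 for Rpl41, 0.10 for Rps26, 0.047 for Rps15, 0.0015 for Rpl27 and -0.030 for Rps9. With the block the log2 difference was 0.034 for Rps26 and -0.0042 for Rps9. With array weights the log2 difference was 0.036 for Rps19, 0.051 for Rpl13a, 0.12 for Rpl41, 0.19 for Rps26, 0.15 for Rps15, 0.19 for Rpl27 and -0.13 for Rps9. With 1L only the log2 difference was 0.059 for Rpl39, 0.0013 for Rpl41, 0.070 for Rps26 and 0.10 for Rps15. With the mean of all probe sets the log2 difference was -0.28 for Rpl22, 0.080 for Rpl41, 0.093 for Rpl27, -0.088 for Rpl35, -0.16 for Rpl37a, -0.21 for Rps9 and 0.071 for Eif6. With median centring the log2 difference was -0.043 for Rpl22, -0.0064 for Rpl35 and -0.096 for Rps9. With 1R only the log2 difference was -0.0065 for Rpl22 and -0.0096 for Rps9. With signals as deposited the log2 difference was 0.0056 for Rpl41, 0.046 for Rps26 and -0.0026 for Rps9. Without _x_ and _s_ probe sets the log2 difference was 0.14 for Rps24, -0.59 for Rpl22, 0.39 for Rpl41, -0.23 for Rpl35, -0.25 for Rpl37a, -0.22 for Rps9 and 0.036 for Mdm4. Leaving out each animal in turn, it ran from -0.19 to 0.68 for Rps27, -0.048 to 0.23 for Rpl35, -0.083 to 0.40 for Rpl37a, -0.044 to 0.38 for Rps16, -0.12 to 0.0018 for Rps4x, -0.20 to 0.14 for Rps9, -0.069 to 0.29 for Rpl7l1, -0.036 to 0.27 for Rpl11, -0.64 to 0.25 for Rps19, -0.029 to 0.11 for Rpl22, -0.18 to 0.13 for Rpl13a, -0.21 to 0.15 for Rpl41, -0.23 to 0.35 for Rps26, -0.32 to 0.42 for Rps15, -0.48 to 0.20 for Rpl27, -0.64 to 0.091 for Fau, -0.42 to 0.075 for Rps6, -0.29 to 0.051 for Rpl39. Medians then ran from -0.083 to 0.084 for the members, -0.12 to 0.045 for large subunit, -0.23 to 0.091 for ribosomal proteins outside the name pattern, -0.29 to -0.031 for mitochondrial ribosomal proteins, -0.13 to 0.010 for translation elongation factors. The first 3 of these turned positive without KO animal 7, and that of the elongation factors without WT animal 2. Under array weights the members' median was 0.0029. The count of members with an unadjusted p under 0.05 ran from 0 to 1 (and was 1 with 1R only), and that of members higher in KO from 11 to 22. Over all probe sets, 3150 had an unadjusted p under 0.05 with array weights and 771 with the filter, beside 1828. With median centring the median was -0.18 for elongation factors and -0.19 for the TOR list, which was -0.14 with 1L only. Without _x_ and _s_ probe sets 10 members were higher in KO. The intervals lay inside 2-fold for 4 of the 8 weaker members and 30 of the 31 brighter ones, and 1 member, Rps16, was at background.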

Other observations

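The array also carries control probe sets for 18S ribosomal RNA, the RNA of the small subunit. At the one for its 3' part the deposited signals were 14904 in 1L, 23727 in 1R, 19976 in 4L and 12050 in 7L, and 16847, 10325 and 11479 in WT lenses 2L, 5L and 6L. At the one for its middle KO lenses gave 22774 to 36053 and WT lenses 21959 to 26365. At the one for its 5' part KO lenses gave 18661 to 29519 and WT lenses 19075 to 20775. KO and WT lenses overlapped at each of them, and 1R was highest at each. Whether the 2 rounds of amplification kept the level of ribosomal RNA was not tested.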
